A study of Sus scrofa with 16 samples.

Results

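The complement and coagulation genes are 57 genes whose proteins circulate in blood or sit on cells that meet it, and most of them are made by the liver. Of these genes, 42 had a probe matched by name, symbol or accession, 8 had only a probe described by the full protein name without the symbol, and 7 had neither (C4BPB, CFI, F11, F13B, FGB, PROS1 and SERPINF2) and were not analysed here. A probe was taken as a member's when its gene name, the symbol in its description, or its RefSeq accession or gene number gave that member, which gave 91 of 43603 probes on the array. The 42 genes were 42 of 5230 symbols found on the array.

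Liver RNA of 16 pigs at 20 kg body weight was hybridised to Agilent porcine arrays, 1 array per pig in 1 colour. There were 8 pigs of the RFIneg line, which eats less than its growth and maintenance predict (low residual feed intake), and 8 pigs of the RFIpl line, which eats more (high residual feed intake). The lines come from selection on this trait, and all pigs of both were fed ad libitum. The sources used here do not give the sex, age or kinship of the pigs. Only these lines were sampled, so what selection did and what else sets the lines apart cannot be told apart. Each p-value below takes the pig, with its 1 array, as the unit. For changes between the lines it sets their difference against the spread between pigs within a line.

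Complement is a cascade of plasma proteases that marks foreign surfaces. The classical branch starts with C1q on antibody, the lectin branch with mannose-binding lectin on sugars, and the alternative branch amplifies itself through C3 and factor B, after which the terminal proteins C5 to C9 form a pore. Coagulation is a second protease cascade that ends with thrombin cutting fibrinogen into fibrin, with factor XIII cross-linking the clot, plasmin dissolving it, and serpins and protein C holding it in check.

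The arrays sat on 4 slides with 2 RFIneg and 2 RFIpl pigs each. Between 28579 and 34983 probes per array were well above background, the highest count being RFIpl pig 6, and the 75th percentile of an array ran between 320 and 508 units of intensity. The level of a probe is its log2 signal above or below that percentile, and a change is RFIneg minus RFIpl. Each change compares the levels of pigs on 1 probe. Levels of different probes were set side by side to pick the brightest probe of a gene, to call probes bright or dim, and in means over lists. All 9 tested hepatocyte markers, among them ALB and APOA1, were well above background on every array. Array noise, the coefficient of variation of replicated probes, was 6.97 ± 0.50% on RFIneg and 8.04 ± 0.66% on RFIpl arrays (SD, n = 8 each, exact two-sided permutation p = 0.00373), and its part in the results below was not tested except where it was fitted as a covariate. Since the tissue was taken whole, fewer cells of a type and less RNA per cell cannot be told apart.

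The results turn on the probes of 5 genes, whose 60-base sequences are shown so that the separate probes of a gene can be told apart. They are printed 5′ to 3′ as the scanner files give them, in lower case throughout because no base is singled out, and the sources used here give no position of the probes in the genome. F13A1, the A subunit of factor XIII, MASP1, a protease of the lectin branch, and C8A and C8G, chains of the terminal protein C8, have several probes, and MBL2, a mannose-binding lectin, has 1.
F13A1 A_72_P275444: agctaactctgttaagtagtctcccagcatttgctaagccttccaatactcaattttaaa
F13A1 A_72_P476046: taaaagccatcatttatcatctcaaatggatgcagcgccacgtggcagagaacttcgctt
MASP1 A_72_P706393: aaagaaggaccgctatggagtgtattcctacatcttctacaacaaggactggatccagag
MASP1 A_72_P427149: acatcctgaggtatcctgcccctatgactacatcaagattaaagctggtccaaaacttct
MASP1 A_72_P486627: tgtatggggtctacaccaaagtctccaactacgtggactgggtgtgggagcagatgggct
C8A A_72_P088436: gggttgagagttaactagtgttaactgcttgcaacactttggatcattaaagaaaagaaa
C8A A_72_P004631: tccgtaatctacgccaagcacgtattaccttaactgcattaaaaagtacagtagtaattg
C8G A_72_P077791: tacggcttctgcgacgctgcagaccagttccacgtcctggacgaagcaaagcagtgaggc
C8G A_72_P087986: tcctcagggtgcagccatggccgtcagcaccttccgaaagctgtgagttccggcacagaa
C8G A_72_P395308: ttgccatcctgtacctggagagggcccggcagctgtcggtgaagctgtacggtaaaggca
MBL2 A_72_P088471: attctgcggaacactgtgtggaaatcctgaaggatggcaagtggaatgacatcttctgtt
Within each gene the sequences differ, and no 2 printed or measured probes of 1 gene share a run of more than 8 bases. Each probe thus reads another stretch, and these stretches need not lie in the same transcript, which was not tested.

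No complement or coagulation gene passed the test. Of 89 member probes tested, 0 had an adjusted p under 0.05 in limma with Benjamini-Hochberg adjustment over all 30099 probes tested, where 0.00997% of all probes passed. The lowest adjusted p of a member probe was 0.433. At an unadjusted p under 0.05 there were 9 member probes, against 5.45% of all probes. In no member probe did the lines separate without overlap, as they did in 0.0432% of all probes. Of the 91 probes, 86 were well above background on all 16 arrays and none was saturated on any.

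The changes leaned to one side all the same. Each gene was given by its brightest tested probe matched by name, symbol or accession. On these probes 35 of 42 genes had a level above that of RFIpl and 7 had one below it. Of all 4403 named genes tested, 54.6% had a change above 0. The median change of the 42 genes was +0.13, beside +0.02 over all named genes. It stayed above 0 under every other scaling tried and was +0.18 with array noise as a covariate. With array weights it was +0.09 with 29 of 42 genes higher, beside +0.01 over all named genes. Under quantile normalisation it was +0.06, beside +0.02 over all named genes. Under normexp background correction it was +0.07 with 31 of 42 genes higher, beside +0.06 over all named genes, of which 62.7% were higher, and +0.09 over all probes, so that the members did not stand above that shift. Within slides 1 to 4 it was +0.12, +0.22, +0.18 and +0.04. Among lists of other markers, 9 of 9 hepatocyte (median +0.06), 7 of 8 endothelial (+0.07) and 6 of 8 T and NK cell markers (+0.21) were higher. Of bile duct markers 2 of 3 were higher (+0.10), of granulocyte markers 3 of 5 (+0.05) and of Kupffer markers 3 of 5 (+0.02). Megakaryocyte markers had 2 of 4 higher (+0.01) and stellate cell markers 2 of 5 (−0.14). The B cell and erythroid lists had 1 tested gene each, at −0.03 and +0.01. The part of these lists in the lean of the members was not tested. At an unadjusted p under 0.05, 5 of the 42 genes were higher, against 2.61% of named genes, and 1 was lower, against 2.41% of named genes. In none of the 42 did the lines separate, as they did in 0.0227% of named genes.

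**Figure D1:**
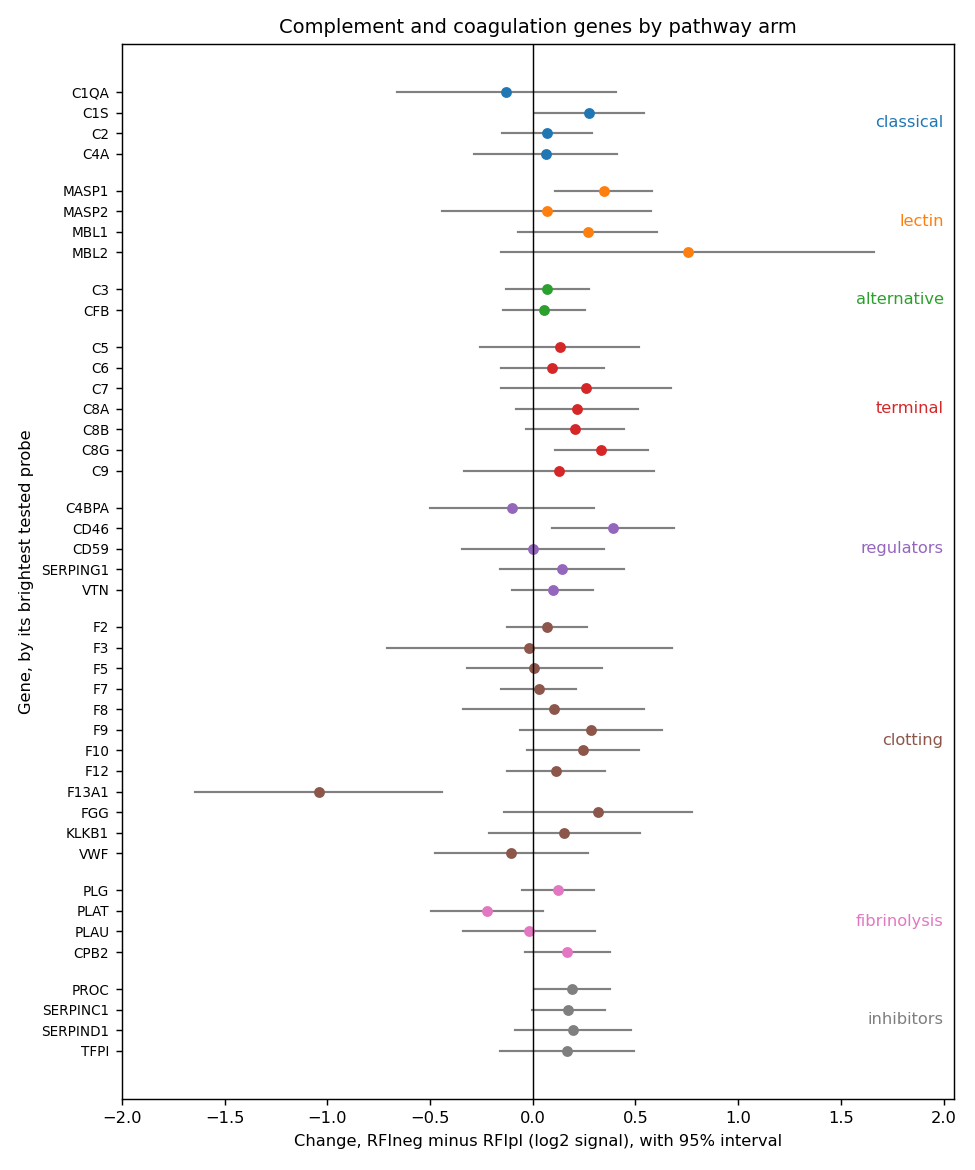
Change of each of 42 complement and coagulation genes (RFIneg minus RFIpl, log2 signal) on the horizontal axis, with its 95% interval from limma, grouped and coloured by pathway arm down the page, each gene by its brightest tested probe matched by name, symbol or accession. Most points lie right of 0 with intervals that reach over it, all 4 lectin, 7 terminal and 4 inhibitor genes lie right of it on these probes, and F13A1 lies alone at the left, at −1.04.

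The classical arm holds the recognition protein C1q, its proteases C1r and C1s, and their substrates C4 and C2. Of its 4 tested genes 3 were higher and 1 lower, with a median of +0.07 and a range from −0.13 (C1QA) to +0.28 (C1S). With array weights 2 were higher and 2 lower, with a median of −0.04. C1S, the protease that cuts C4 and C2, had levels of 6.01 to 6.60 with a median of 6.41 in RFIneg pigs, against 5.65 to 6.49 with a median of 6.10 in RFIpl pigs. Of the 8 RFIneg pigs 7 lay above the RFIpl mean, with broad overlap, and the change was +0.28 (SE 0.125, unadjusted p = 0.0408, adjusted p = 0.907 in limma). Its second probe matched by name or symbol gave +0.17, and 2 probes described only by the full name gave +0.09 and −0.03. The full-name probe at +0.09 was the brightest C1S probe. C2, which joins C4 in the classical C3 convertase, had levels of 6.38 to 7.01 with a median of 6.72 in RFIneg pigs, against 6.42 to 6.88 with a median of 6.65 in RFIpl pigs. The lines overlapped over nearly their whole range, with a change of +0.07 (SE 0.105, adjusted p = 0.99 in limma), and its other probe gave +0.20. The 3 probes of C4A, the other substrate, gave +0.06, +0.08 and −0.07.

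C1q and the C1r protease were measured mostly through probes described by full name. C1QA, C1QB and C1QC, the 3 chains of C1q, which macrophages are known to make, had changes of −0.13 (SE 0.253), −0.24 (SE 0.233) and −0.20 (SE 0.284). C1R was at +0.03 (SE 0.0987). The 3 C1q chains moved together from pig to pig, as the correlations below show, while none differed between the lines beyond the spread within them. Kupffer cell markers, which share that source, had 3 of 5 genes higher and 2 lower, with a median of +0.02 and list means of 3.82 to 4.94 in RFIneg pigs and 4.0 to 4.96 in RFIpl pigs. Their defining scavenger receptor CD163 was at +0.02 (SE 0.306). The part of Kupffer cells in the C1q values was not tested beyond these levels.

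The lectin arm had all 4 tested genes higher on their brightest probes, with a median of +0.31 and a range of +0.07 (MASP2) to +0.75 (MBL2). With the mean over all tested probes of a gene 3 of 4 were higher, MASP2 was at −0.03, and the median was +0.15. With array weights 3 of 4 were higher, with a median of +0.30 and the lowest at −0.09. MBL2, mannose-binding lectin C, had levels of 2.31 to 5.37 with a median of 2.75 in RFIneg pigs, against 1.61 to 2.91 with a median of 2.65 in RFIpl pigs. RFIneg pigs 4 and 5 stood at 5.37 and 5.30, the other 6 RFIneg pigs lay between 2.31 and 3.20, and the medians of the lines nearly coincided. The change was +0.75 (SE 0.432, adjusted p = 0.967 in limma). It was +0.46 without RFIneg pig 4 and +0.47 without RFIneg pig 5, and on slides 1 and 3, which hold neither pig, it was −0.08 and −0.33. MBL1, mannose-binding lectin A, was at +0.27 (SE 0.161) from its only probe.

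MASP1, the protease that starts the lectin cascade, gave different answers by probe. On its brightest probe, A_72_P706393, levels were −1.21 to −0.68 with a median of −0.93 in RFIneg pigs, against −1.67 to −0.95 with a median of −1.22 in RFIpl pigs. All 8 RFIneg pigs lay above the RFIpl mean, and the lines overlapped between −1.21 and −0.95. The change was +0.35 (SE 0.112, unadjusted p = 0.00661, adjusted p = 0.636 in limma), and it was +0.27, +0.40, +0.57 and +0.13 within slides 1 to 4. The other MASP1 probes, whose sequences stand above, gave −0.02 (A_72_P427149) and −0.22 (A_72_P486627), the second of them negative within each slide, at −0.46, −0.20, −0.10 and −0.11. The mean over the 3 probes was +0.04. The gene yields several proteins from alternative transcripts in human and mouse, and the files describe A_72_P706393 by an alternatively spliced MASP record and the other 2 probes by a separate MASP1 record. The probes of MASP2, the second lectin protease, were at +0.07 and −0.13, with RFIneg pigs 1 and 2 highest on the first of them, at 2.41 and 2.77.

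The alternative arm was tested through C3 and CFB, both above 0 but both below it under normexp. C3, the central component on which all branches meet, had levels of 7.66 to 8.12 with a median of 7.99 in RFIneg pigs, against 7.63 to 8.22 with a median of 7.90 in RFIpl pigs. The change was +0.07 (SE 0.0958, adjusted p = 0.984 in limma) and turned under normexp (−0.03) and quantile normalisation (−0.0011), while its 5 probes gave +0.05 to +0.18. CFB, the protease of the alternative convertase, had levels of 8.30 to 8.74 with a median of 8.45 in RFIneg pigs, against 8.10 to 8.60 with a median of 8.43 in RFIpl pigs. Its change was +0.05 (SE 0.0943, adjusted p = 0.997 in limma), and −0.06 under normexp. Both genes had near-coincident lines. Factor D, the protease that activates factor B and is known as a product of fat cells and macrophages, lay to the other side, at −0.32 (SE 0.155, adjusted p = 0.928) and −0.31 (SE 0.15, adjusted p = 0.935) on its 2 CFD probes described by full name. Properdin (CFP), which stabilises the convertase and comes from white blood cells, was at −0.39 (SE 0.288, adjusted p = 0.979). In limma none of these 3 probes passed.

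The terminal arm had all 7 tested genes higher on their brightest probes, C5, C6, C7, C8A, C8B, C8G and C9, with a median of +0.21 and a range of +0.09 to +0.33. With the mean over a gene's tested probes matched by name, symbol or accession, 6 of 7 were higher, C8A being at −0.17. Under normexp 6 of 7 were higher with a median of +0.12. With array weights 5 were higher and 2 lower, with a median of +0.16. C8G, the gamma chain of C8, had levels of 6.20 to 6.73 with a median of 6.47 in RFIneg pigs, against 5.75 to 6.34 with a median of 6.11 in RFIpl pigs. All 8 RFIneg pigs lay above the RFIpl mean, and the lines overlapped only between 6.20 and 6.34. The change was +0.33 (SE 0.107, unadjusted p = 0.00613, adjusted p = 0.624 in limma). The other 2 probes of C8G gave +0.35 (adjusted p = 0.636) and +0.38 (adjusted p = 0.546) in the same fit, and within slides the first probe was at +0.48, +0.23, +0.33 and +0.29. The sign was thus the same on all 3 probes and on each slide, although none of the probes passed.

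The other chains of C8 were less even. C8B, the beta chain, had levels of 4.84 to 5.33 with a median of 5.03 in RFIneg pigs, against 4.51 to 5.22 with a median of 4.80 in RFIpl pigs, and a change of +0.21 (SE 0.114, adjusted p = 0.963 in limma). C8A, the alpha chain, had levels of 6.62 to 7.55 with a median of 7.27 in RFIneg pigs, against 6.52 to 7.43 with a median of 6.98 in RFIpl pigs. Its change was +0.21 (SE 0.142, adjusted p = 0.977 in limma), with wide overlap. Its second probe, A_72_P004631, was at −0.56 (SE 0.326, adjusted p = 0.967), since 5 RFIneg pigs lay between 1.12 and 1.46 and the other 3 at 2.38, 2.97 and 3.31, whereas RFIpl pigs lay between 1.46 and 3.07. Another C8A probe, described by full name, gave +0.06. C9, which forms the wall of the pore, was at +0.13 and +0.50 on its 2 probes, C5 at +0.13 and +0.20, and C6 at +0.09, +0.16 and +0.26. C7, which anchors the complex in the membrane, was at +0.26 from its only probe.

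**Figure D2:**
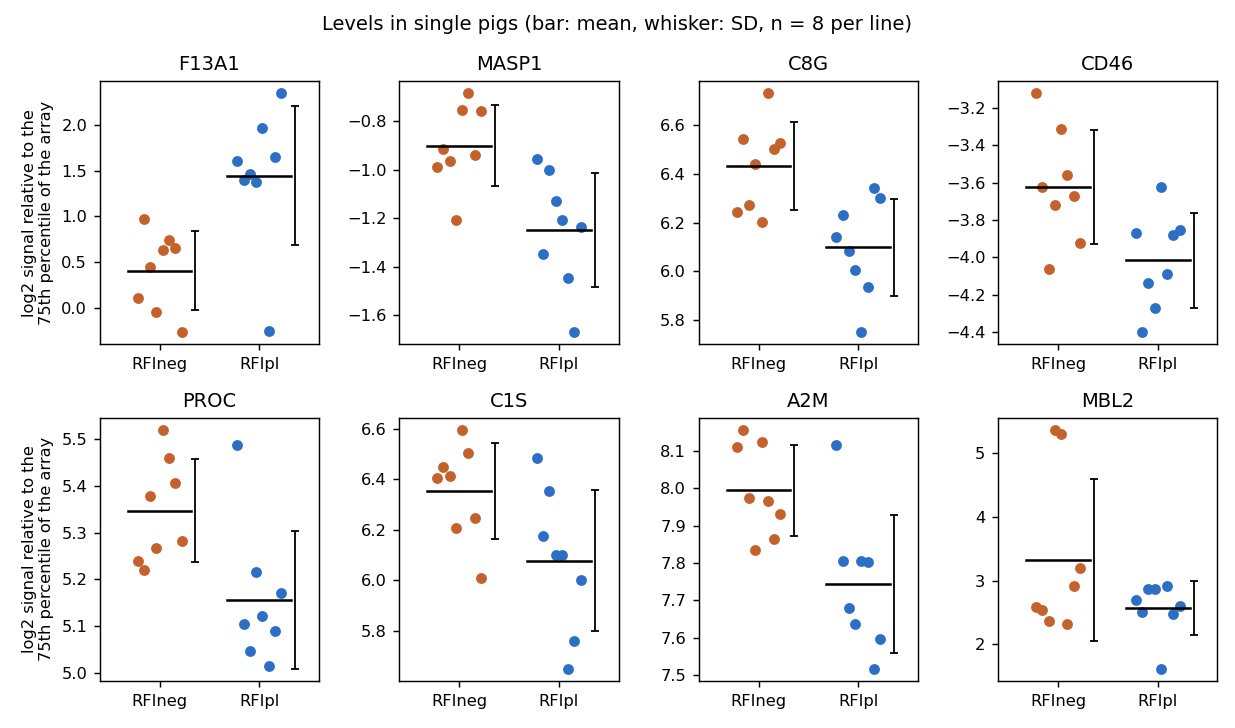
Level of 8 members in each pig (log2 signal above or below the 75th percentile of its array, vertical axes), RFIneg in orange at the left of each panel and RFIpl in blue at the right, with points spread sideways in pig order, a bar at the mean and a whisker of 1 SD (n = 8 each). The F13A1 panel shows 1 RFIpl pig at −0.25 below the other 7, the MBL2 panel shows 2 RFIneg pigs above 5, and the lines overlap in every panel.

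Among the regulators, which restrain complement on host cells and in plasma, 4 of 5 tested genes were higher and 1 lower, with a median of +0.10. The 4 include CD59 at 0.00. Under normexp 2 were higher and 3 lower, with a median of −0.02. With the mean over all tested probes of a gene 3 were higher and 2 lower, with a median of +0.08. These counts were the same with array weights, where the median was +0.01. CD46, the membrane cofactor that helps degrade C3b and C4b, had levels of −4.06 to −3.12 with a median of −3.65 in RFIneg pigs, against −4.40 to −3.62 with a median of −3.98 in RFIpl pigs. Of 8 RFIneg pigs 7 lay above the RFIpl mean, and the change was +0.39 (SE 0.142, unadjusted p = 0.0131, adjusted p = 0.708 in limma), with +0.17 to +0.80 within the slides. The CD46 probe was well above background on all 16 arrays but dim. VTN, vitronectin, which blocks the terminal complex, had levels of 7.84 to 8.21 with a median of 8.01 in RFIneg pigs, against 7.68 to 8.08 with a median of 7.91 in RFIpl pigs. All 8 of its probes gave a change above 0, from +0.01 to +0.19, and that of the brightest was +0.10 (SE 0.0938, adjusted p = 0.979 in limma) but −0.02 under normexp. C4BPA, the alpha chain of the C4b-binding protein, was the member of this arm below 0, with all 6 probes between −0.26 and −0.06. SERPING1, the C1 inhibitor, was at +0.02 to +0.14 on its 3 probes, and CD59, which blocks pore assembly, at 0.00 and −0.11.

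The clotting arm had 9 of 12 tested genes higher and 3 lower, with a median of +0.09. F13A1, whose product cross-links fibrin, had the largest change of all members and the opposite sign. Its levels were −0.27 to 0.97 with a median of 0.54 in RFIneg pigs, against −0.25 to 2.35 with a median of 1.54 in RFIpl pigs. RFIpl pig 6 was at −0.25 and the other 7 RFIpl pigs were between 1.37 and 2.35, above every RFIneg pig, so that the lines overlapped through that pig alone. The change was −1.04 (SE 0.285, unadjusted p = 0.00192, adjusted p = 0.471 in limma). Without RFIpl pig 6 it was −1.28 with an adjusted p of 0.0576, the lowest under any alternative tried in limma, still short of the threshold. Within slides it was +0.13 on slide 1, which holds RFIpl pig 6, and −1.31, −0.92 and −2.07 on slides 2 to 4.

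The other F13A1 probes were dim. A_72_P476046 was well above background in 4 RFIneg and 7 RFIpl pigs, with levels of −7.35 to −5.05 in RFIneg pigs and −5.43 to −4.11 in RFIpl pigs, and a change of −1.43 (SE 0.366, adjusted p = 0.433 in limma) that is not exact for that reason. Another F13A1 probe, A_72_P695851, was well above background in 0 RFIneg and 4 RFIpl pigs and was not tested. Both tested F13A1 probes thus lay below 0. Factor XIII A is known, from human work, as a product of macrophages and megakaryocytes. Kupffer markers had a median of +0.02 with CD14 at +0.35 (SE 0.124), VSIG4 at −0.31 (SE 0.254) and AIF1 at −0.22 (SE 0.212), and the 4 tested megakaryocyte markers a median of +0.01 with 2 higher and 2 lower. Of these megakaryocyte markers ITGB3 was bright, with means of 9.26 in RFIneg and 9.21 in RFIpl pigs. GP1BB was dim, at −4.86 and −4.62, and well above background in 8 RFIneg and 7 RFIpl pigs. How far these probes read megakaryocytes was not tested, nor was the part of either cell type in the F13A1 values.

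The other clotting factors differed less. F10, the protease that makes thrombin, had levels of 4.54 to 5.01 with a median of 4.84 in RFIneg pigs, against 4.0 to 5.02 with a median of 4.54 in RFIpl pigs. Its change was +0.24 (SE 0.129, adjusted p = 0.958 in limma), with overlap over most of the RFIneg range, and a probe described by full name gave +0.21. Prothrombin (F2) was at +0.07, F7 at +0.03, F8 at +0.10, F12 at +0.11, F5 at +0.01 and factor IX (F9) at +0.28 and +0.16. Tissue factor (F3), the starter of the cascade, was at −0.02 and +0.05, and von Willebrand factor (VWF), the platelet adhesion protein of endothelium, at −0.10. The tested chains of fibrinogen were FGG, at +0.32 (SE 0.217) and, on a probe described by full name, +0.23, and FGA, at +0.21 and +0.47, the second of these from a dim probe well above background in 8 RFIneg and 6 RFIpl pigs. Plasma kallikrein (KLKB1), a protease of the contact system, was at +0.15, +0.16 and −0.09 and its substrate kininogen (KNG1), by full name, at +0.09.

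In the fibrinolysis arm 2 of 4 genes were higher and 2 lower, with a median of +0.05. PLAT, tissue plasminogen activator, had levels of −1.27 to −0.51 with a median of −0.70 in RFIneg pigs, against −0.88 to −0.23 with a median of −0.63 in RFIpl pigs. The change was −0.22 (SE 0.13, adjusted p = 0.967 in limma), and all 5 tested PLAT probes gave a change below 0, the others −0.20 to −0.15. CPB2, a carboxypeptidase that protects fibrin from plasmin, had levels of 5.62 to 6.16 with a median of 6.0 in RFIneg pigs, against 5.6 to 6.01 with a median of 5.85 in RFIpl pigs. Its change was +0.17 (SE 0.0984, adjusted p = 0.967 in limma) and +0.19 on its second probe. Plasminogen (PLG) was at +0.12 and +0.20, and urokinase (PLAU) at −0.02 and +0.06, the second from a dim probe well above background in 5 RFIneg and 6 RFIpl pigs. The activators of plasminogen therefore lay at or below 0 on their brightest probes and plasminogen itself above 0, without any of them passing.

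All 4 tested inhibitors of clotting were higher, in the main fit within a narrow range of +0.17 to +0.20 and a median of +0.18. Under normexp the range was +0.08 to +0.22 with a median of +0.09, and with array noise as a covariate +0.0005 to +0.22. Within slide 1 it was −0.17 to +0.17, with 3 higher and 1 lower. PROC, protein C, which inactivates factors V and VIII, had levels of 5.22 to 5.52 with a median of 5.33 in RFIneg pigs, against 5.01 to 5.49 with a median of 5.11 in RFIpl pigs. RFIpl pig 1 was at 5.49 and the other 7 RFIpl pigs at 5.01 to 5.22, so that the lines overlapped through RFIpl pig 1. The change was +0.19 (SE 0.0872, unadjusted p = 0.0434, adjusted p = 0.912 in limma). SERPINC1, antithrombin, had levels of 8.83 to 9.08 with a median of 8.90 in RFIneg pigs, against 8.54 to 8.95 with a median of 8.73 in RFIpl pigs. Its change was +0.17 (SE 0.0836, adjusted p = 0.919 in limma), and +0.20 on each of its other 2 probes. SERPIND1, heparin cofactor II, was at +0.20 and TFPI, which blocks tissue factor, at +0.17. Alpha-2-macroglobulin (A2M), a broad protease trap measured by full name, had levels of 7.83 to 8.16 with a median of 7.97 in RFIneg pigs, against 7.52 to 8.11 with a median of 7.74 in RFIpl pigs, and a change of +0.25 (SE 0.0954, unadjusted p = 0.0176, adjusted p = 0.752 in limma).

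**Figure D3:**
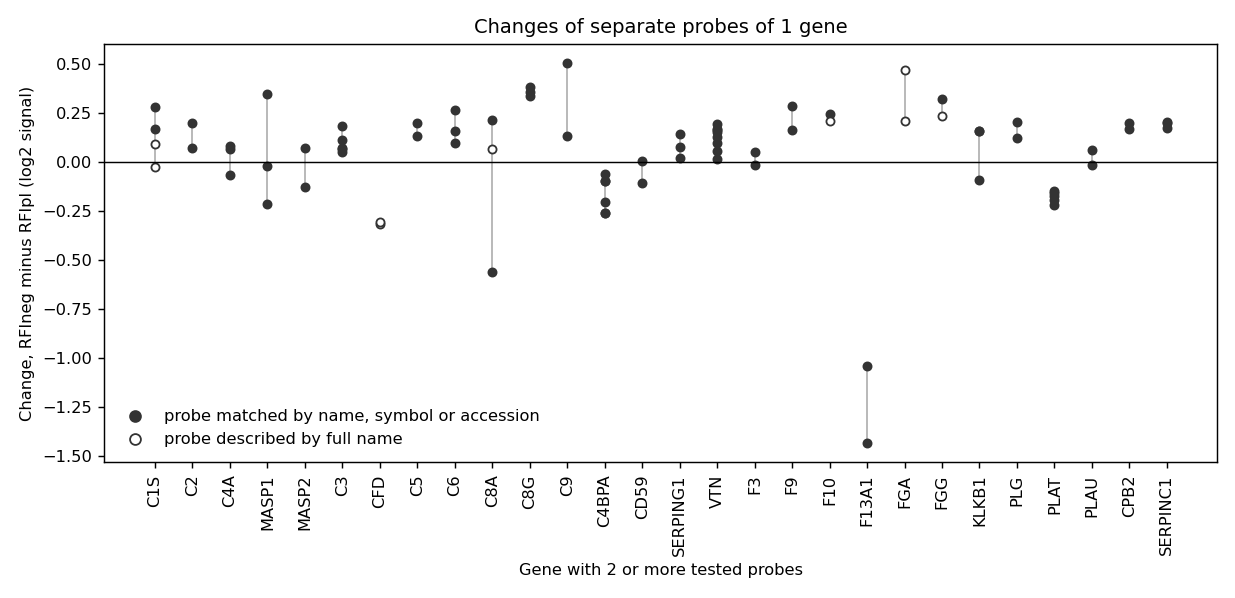
Change of every tested probe (RFIneg minus RFIpl, log2 signal, vertical axis) of the 28 genes with at least 2 tested probes, with filled points for probes matched by name, symbol or accession and open points for probes described by full name, joined by a line within a gene. The 3 C8G probes lie close together at +0.33 to +0.38, while MASP1 and C8A lie on both sides of 0.

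Of the 24 genes with at least 2 tested probes matched by name, symbol or accession, 16 had all probes on one side of 0 and 8 had probes on both sides (C4A, C8A, CD59, F3, KLKB1, MASP1, MASP2 and PLAU). With the mean over all tested probes of a gene in place of the brightest, 34 of 42 genes were higher and the median was +0.12. With the probes described by full name added, 39 of 50 genes were higher with a median of +0.10, and 0 of 104 probes passed in limma. The step added C1QB, C1QC, CFD and CFP below 0 and A2M, FGA, KNG1 and C1R above it.

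Single pigs stood apart across many members at once. The median deviation of the 42 genes from their means over all pigs ran from −0.12 (pig 8) to +0.18 (pig 1) in the RFIneg line and from −0.29 (pig 6) to +0.14 (pig 1) in the RFIpl line. RFIpl pig 6 had 8 of 42 genes above their mean, RFIpl pig 1 had 33, and RFIneg pig 1 had 33. RFIpl pig 6 also had the most probes above background, and without it 32 of 42 genes were higher in RFIneg and the median was +0.08. RFIneg pigs 1 and 2 were highest in FGG, at 7.38 and 7.37 against 5.99 to 6.81 in the other RFIneg pigs, and in F3, at −0.10 and −0.06 against −2.26 to −1.20. The spread between pigs of a line was smallest for PLG (SD 0.114), SERPINC1 (0.118) and F7 (0.129) and largest for MBL2 (0.950), F3 (0.719) and F13A1 (0.618).

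**Figure D4:**
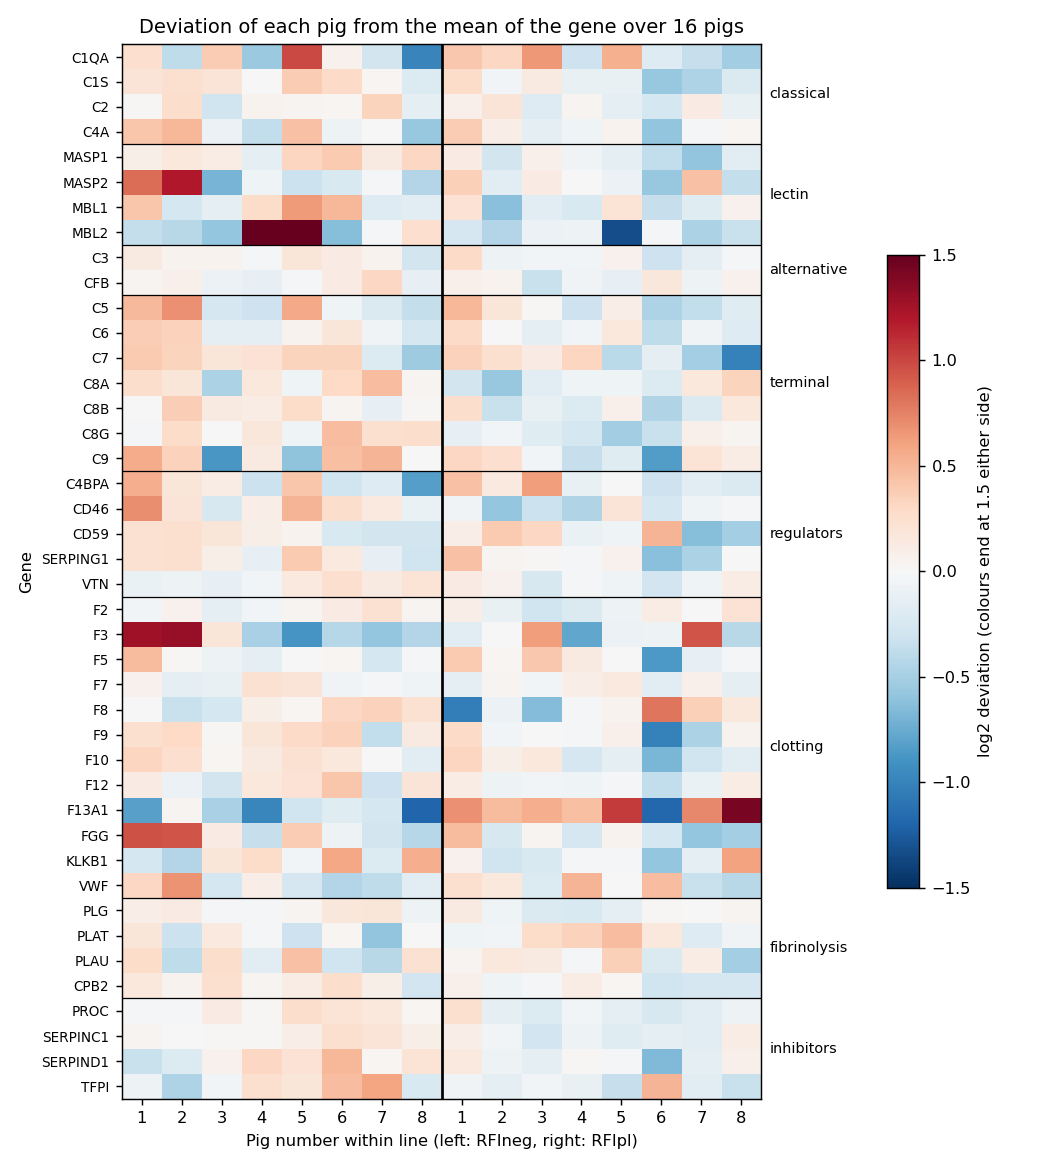
Deviation of each pig (columns, RFIneg pigs 1 to 8 left of the line, RFIpl pigs 1 to 8 right of it) from the mean of the gene over 16 pigs (log2, red above and blue below, colours end at 1.5) for 42 genes in rows grouped by arm. RFIpl pig 6 is blue in most rows, and the F13A1 row is blue in most RFIneg pigs and red in 7 RFIpl pigs.

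Subunits of 1 protein, partners in a pathway step, and members with a marker of their cell type were compared over the 16 pigs, in 13 pairs with 2-sided permutation tests and Benjamini-Hochberg adjustment over these pairs, and 5 passed by both Pearson's r and Spearman's rho. C1QA and C1QB had r = 0.967 and rho = 0.938, C1QB and C1QC r = 0.948 and rho = 0.903, and C1QA and C1QC r = 0.925 and rho = 0.879. In each the adjusted p was 6.5e-05 or below, from unadjusted p of 2e-05 or 1e-05 by permutation, where 1e-05 is the smallest the permutations can give. Without the 2 pigs farthest from the median of the first gene, r was 0.937, 0.924 and 0.908. C1QB and the Kupffer marker CD163 had r = 0.791 (p = 0.00034, adjusted p = 0.000884) and rho = 0.779 (p = 0.00066, adjusted p = 0.00172) by permutation, and r = 0.702 without the 2 farthest pigs. This relation was 0.394 among the 8 pigs of the first series of file numbers and 0.966 among the 8 of the second, so it rests largely on the second. The 3 C1q pairs had r of 0.915 to 0.973 within each series.

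The fibrinogen chains FGA and FGG had r = 0.929 (p = 1e-05, adjusted p = 4.33e-05) and rho = 0.882 (p = 2e-05, adjusted p = 6.5e-05) by permutation, r = 0.853 without the 2 farthest pigs, and 0.952 and 0.816 within the series. C8A and C8G had r = 0.509 (p = 0.0439, adjusted p = 0.0951) and rho = 0.627 (p = 0.0109, adjusted p = 0.0236) by permutation, and so passed by rho alone. The other chains of C8 gave r = 0.213 for C8A with C8B and 0.289 for C8B with C8G. Neither C2 with CFB (r = 0.489), MBL1 with MBL2 (0.373), F13A1 with CD163 (0.293), VWF with the endothelial marker PECAM1 (−0.037) nor the partner proteases C1R and C1S (−0.147) passed, with adjusted p of 0.0989 to 0.934 over both measures by permutation. For C1R and C1S r was 0.281 without the 2 farthest pigs, and 0.609 and −0.180 within the series. Of the C1S probes only the brightest matched by name or symbol was used, and the others were not correlated with C1R. The 5 pairs that passed all hold a probe described by full name, and a shared source of variation in the arrays was not tested beyond the split by series and the centring on line and slide, after which their r was 0.702 to 0.960.

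**Figure D5:**
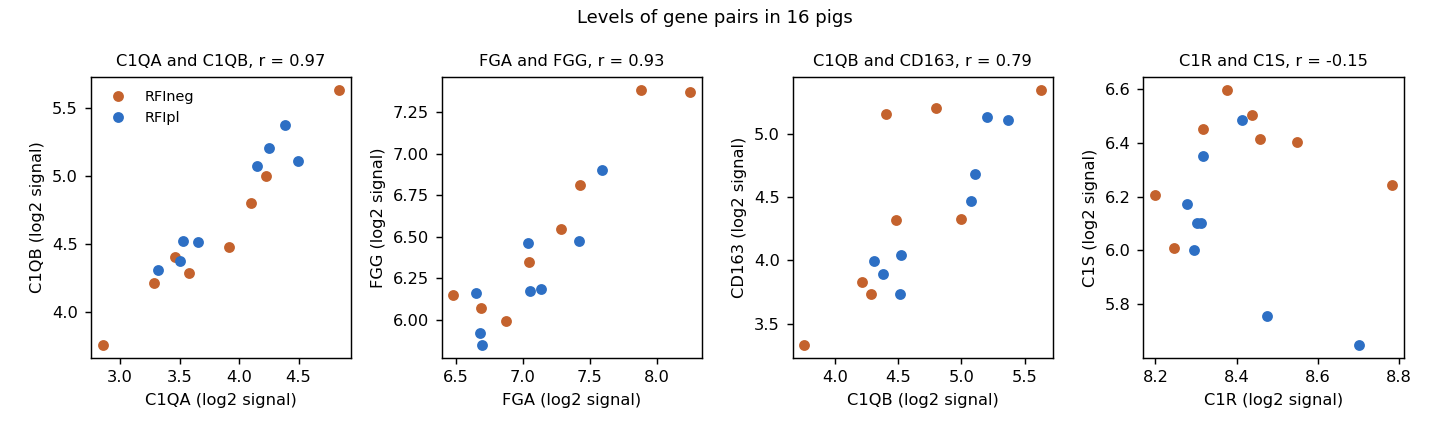
Levels of 4 pairs of genes in the 16 pigs (log2 signal above or below the 75th percentile of its array, both axes), RFIneg in orange and RFIpl in blue, with Pearson's r in the title of each panel. C1QA with C1QB and FGA with FGG follow a line that holds pigs of both lines, and C1QB with CD163 follows one more loosely. C1R with C1S does not on the C1S probe used.

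Other genes of the 2 cascades, receptors, further inhibitors and cofactors, numbered 45 on a list, of which 16 were tested. Of these 10 were higher and 6 lower, with a median of +0.04, and 0 had an unadjusted p under 0.05 in limma (0 at adjusted p under 0.05). The smallest p on the higher side belonged to VKORC1, which recycles vitamin K for the clotting factors (+0.19, SE 0.117), the lectin FCN2 (+0.31, SE 0.197) and thrombomodulin (THBD), the thrombin cofactor for protein C (+0.22, SE 0.171). On the lower side were SERPINA5, the protein C inhibitor (−0.18, SE 0.145), the C3b receptor VSIG4 (−0.31, SE 0.254) and clusterin, CLU, a binder of the terminal complex (−0.12, SE 0.144). FCN2, which like MBL2 starts the lectin branch, had an adjusted p of 0.977 in limma. It lay on the same side as the brightest probes of the 4 lectin genes, but MASP1 and MASP2 also had probes with a negative change.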

How the data were processed

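Liver RNA of 16 pigs was hybridised in 1 colour (Cy3), with 1 array for each pig. The scanner software was Agilent Feature Extraction, version 10.7.3.1, per the file headers. Per the file headers the processed signal is an intensity on a linear scale, corrected for background but not scaled between arrays. The authors' deposited table holds log2 values of 27938 spots, equal to the log2 processed signal minus its median per array. The submitters' processing notes name R 2.10.0.

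Outlier spots were left out, each array was centred on its 75th percentile (log2), and spots of 1 probe were averaged. Probes well above background on at least 8 of 16 arrays were tested (30099 of 43603). Of the 91 member probes, 70 were matched by gene name, 10 by the symbol in the description and 11 by RefSeq accession or gene number; 18 more, described by full name only, were added after the annotation was seen. Each gene took the value of its brightest tested probe matched by name, symbol or accession, by the mean over 16 arrays. Means over the probes of a gene used these matched probes too. For C1S and FGG a probe described by full name was brighter and was not taken. RFIneg minus RFIpl was tested by limma 3.58.1 (R 4.3.3), and p-values of all tested probes were adjusted together (Benjamini-Hochberg, threshold 0.05). Correlations used 100000 permutations (scipy 1.17.1, numpy 2.4.6, pandas 2.3.3). The fit was tested on simulated data. Python 3.11.15 and matplotlib 3.10.9 drew the plots.

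The members, lists and pairs were chosen with earlier results of these data known. Full values were given for the 2 members with the smallest p per arm, members with an unadjusted p under 0.05, and members whose probes lie on both sides of 0 and over 0.3 apart. Alternatives were normexp (offset 50), quantile, median and cyclic loess scaling, the authors' table, other filters, blocks and covariates, single slides, trend with robust variances, array weights, the mean over probes, and leaving out each pig. The number of arrays limits the precision. The SE of a probe had a median of 0.160.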

Additional observations from a re-analysis of the deposited data

Results flagged for a closer look

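In 11 of the 84 sets of 8 pigs (42 genes in 2 lines), 1 pig lay far from the other 7 by Dixon's test at the 95% level, where chance flags about 1 set in 20, or 4.2 of 84. Of these 11 flags, 5 belonged to RFIpl pig 6. It was low in F13A1, at −0.25 against 1.37 to 2.35 in the other RFIpl pigs, in F5 (3.49 against 4.24 to 4.76), in F12 (6.51 against 6.78 to 7.0) and in SERPIND1 (5.31 against 5.82 to 6.12). It was high in TFPI, at −1.5 against −2.36 to −2.05. Its array also had the most probes well above background, 34983, and the part of the array in these values was not tested. RFIneg pig 8 was low in C3 (7.66 against 7.91 to 8.12) and CPB2 (5.62 against 5.94 to 6.16). RFIneg pig 7 was low in F9 (4.45 against 4.83 to 5.16), and RFIneg pig 1 was high in F5 (4.83 against 4.10 to 4.39). RFIpl pig 5 was low in MBL2 (1.61 against 2.48 to 2.91), and RFIpl pig 1 was high in PROC (5.49 against 5.01 to 5.22).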

How the results depend on the processing

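Under each of the alternatives tried, 0 member probes passed, and the median change stayed between +0.04 (slide 4 alone) and +0.22 (slide 2 alone), or +0.08 to +0.16 on leaving out each pig. Members higher in RFIneg numbered 27 of 42 (slide 4 alone) to 38 of 42 (without RFIneg pig 8). On leaving out each pig the range was 32 to 38 of 42. With full-name probes added they numbered 39 of 50, beside 35 of 42 in the main fit. Of 612 values of the 17 named members under alternatives, 598 kept their direction and 14 turned. The 598 include alternatives that could not turn a sign. Blocks of slide, series or number, other filters and robust variances left the changes of the members as in the main fit. On single slides these were F13A1 on slide 1 (+0.13), F10 (−0.0087), C1S (−0.068) and C3 (−0.13) on slide 4, MBL2 on slides 1 (−0.080) and 3 (−0.33), and C2 (−0.22), C8A (−0.14) and PLAT (+0.012) on slide 3. Under normexp C3 (−0.027), CFB (−0.064) and VTN (−0.017) turned, where the median of all probes was +0.09, as did C3 under quantile normalisation (−0.0011) and C8A with the mean over its probes (−0.17). Without the probes described by full name 7 pairs could be correlated and 0 passed, since the 5 pairs that passed all hold such a probe. Pig numbers are shared between the lines, and the labels do not say what a number marks. The correlation of deviations was over 0.1 in 6 of 8 same-numbered pairs and 0.0471 and 0.0922 in the other 2. Of the 16 pigs 11 correlated best with their own number, a hint from the data of something shared by such pairs. Pigs of the same number also share a series of file numbers, and those of numbers 5 and 8 a slide. Number, series and slide were not told apart here. Since not every pair was over 0.1, the fit without the block was kept. With the number as a replicate block 0 of 89 member probes passed. The median change was +0.13, which the block cannot move because every number is in both lines. In limma 12 of the member probes had an unadjusted p under 0.05, against 9 without the block. Over all 30099 probes these counts were 2399 with the block and 1640 without it. With array noise as a covariate MBL2 was at +0.34, C8A at +0.08, C3 at +0.11, CFB at +0.15, C1S at +0.42 and F10 at +0.38, and the cause was not tested for any of these shifts. Signal over background limits 4 tested probes, 1 each of F13A1, FGA, PLAU and CD59, and 5 untested ones, 2 of PLAT and 1 each of C4A, F13A1 and VWF.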
